A study of Homo sapiens with 12 samples.

Results

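The AP-1 and EGR immediate early genes described here are 10 transcription factor genes, FOS, FOSB, FOSL1, FOSL2, JUN, JUNB, JUND, EGR1, EGR2 and ATF3. They were chosen by name, and all 10 were found among the 58735 gene rows of the count table. A gene was tested when it had at least 10 counts over the 12 libraries, which left 25873 genes and all 10 members. RNA-sequencing was performed on THP1 cells, an established human leukemia monocytic line labelled wild type, in 4 groups of 3 libraries. THP1 cells were kept for 24 h alone (mono-culture) or across a transwell filter from endothelial cells of the umbilical vein. These were treated with vehicle (control ECs), with etoposide, which damages DNA and makes them senescent (senECs), or with etoposide and the green tea catechin EGCG (EGCG-treated senECs). EGCG and etoposide were given to the ECs before the co-culture. In all 4 groups, mono-culture included, the THP1 cells were then taken out and given LPS (100 ng/ml, 2 h), so the 12 libraries hold no unstimulated control. All values describe THP1 RNA of 1 cell line, and in bulk RNA fewer expressing cells and less RNA per cell cannot be told apart. The labels do not say whether the replicates came from separate cultures, so the p-values measure the spread between these libraries, which may be technical.

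Immediate early genes are switched on by signalling to transcription factors already present in the cell, without new protein synthesis, and most of their mRNAs decay quickly. FOS and JUN family proteins dimerize through a leucine zipper to form AP-1, which binds the TGACTCA element of many cytokine, adhesion and protease genes. In monocytes, LPS acts through TLR4 on the MAP kinases and NF-κB, and AP-1 and the zinc finger factor EGR1 take part in the early inflammatory response that follows.

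Library totals ranged from 15439836 to 22092600 counts. Levels are given as CPM, counts scaled to a common TMM-adjusted library size, and a count of 3 was worth 0.132 to 0.191 CPM, which concerns counting error alone. Of 12 monocyte markers, 11 were at a mean of 1 CPM or more and CD68 was below it, and their summed level was 1188 to 1326 CPM in mono-culture and 1265 to 1568 CPM in the co-cultures. Of 16 endothelial markers, 11 were below a mean of 1 CPM, CDH5, KDR and TIE1 among them, and SOX17 and MMRN1 had no count in any library. Their summed level, carried mainly by PECAM1, was 167 to 193 CPM in mono-culture, 169 to 194 CPM with control ECs, 206 to 253 CPM with senECs and 195 to 260 CPM with EGCG-treated senECs. PECAM1 alone was at a mean of 144 CPM in mono-culture, which held no endothelial cells. CDH5, which defines endothelium, had at most 1 count per library, and the part of the other endothelial transcripts in the results was not tested. The labels number the libraries 1, 2 and 3 in mono-culture and with control ECs, and 1, 2 and 5 with senECs and EGCG-treated senECs, and do not say what a number stands for.

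All 10 genes were detected in every library. Levels of different genes were compared per kilobase of exon (FPKM), as mean ± SD over the 12 libraries. JUNB was highest at 56.3 ± 10.4 FPKM, followed by JUND at 47.5 ± 7.02 FPKM. JUN and EGR1 came next at 20.5 ± 4.35 and 20.3 ± 7.61 FPKM and were not separated, since JUN was above EGR1 in 7 of 12 libraries. FOS stood at 12.9 ± 1.89 FPKM and FOSL1 at 10.8 ± 2.50 FPKM, with FOS above FOSL1 in 10 of 12 libraries. FOSL2 (3.93 ± 1.20 FPKM), ATF3 (2.76 ± 0.798 FPKM) and FOSB (1.70 ± 0.476 FPKM) were lower. EGR2 was lowest at 0.357 ± 0.150 FPKM, with 7 to 44 counts per library. JUND, FOSL1, FOSL2 and FOSB lay above the next gene of this order in all 12 libraries, and JUNB, EGR1 and ATF3 in 11 of 12.

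**Figure D1:**
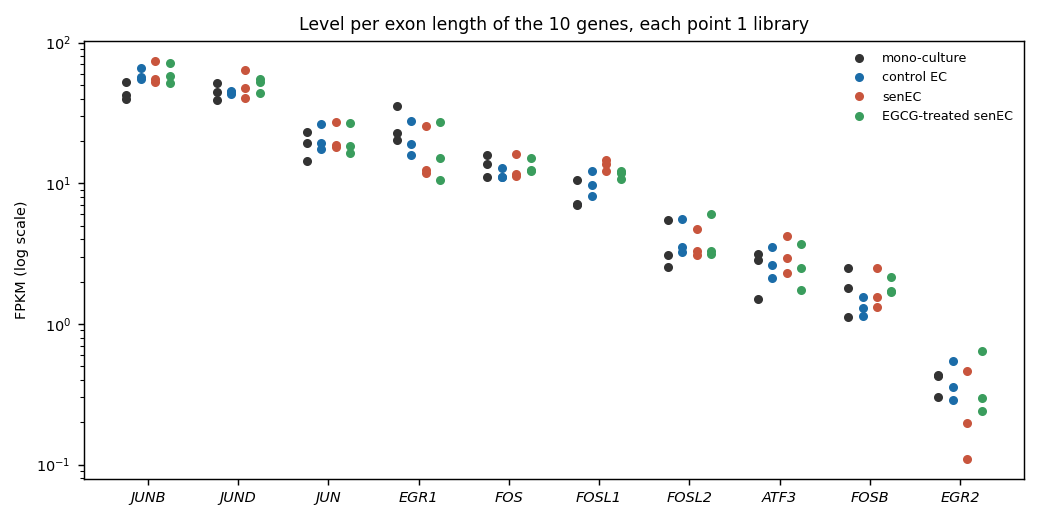
Levels of the 10 genes in FPKM (log axis, CPM per kilobase of exon), with 1 point per library and 1 colour per group. JUNB and JUND lead at means of 56.3 and 47.5 FPKM, JUN and EGR1 overlap, and EGR2 is lowest at 0.357 FPKM.

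In the group-only test, without replicate number in the model, none of the 10 genes was called in any comparison at an adjusted p of 0.05 (edgeR quasi-likelihood test, Benjamini-Hochberg adjustment over 25873 genes). Of the genes that came nearest, FOSL1 and JUNB were higher and EGR1 was lower in co-culture than in mono-culture. With control ECs against mono-culture 0 of 10 members were called, where 0.143% of all genes were, and 1 member had an unadjusted p under 0.05 (6.52% of all genes). With senECs against mono-culture it was 0 of 10 (0.309% of genes), with 3 members at an unadjusted p under 0.05 (11% of genes). With EGCG-treated senECs against mono-culture it was 0 of 10 (0.213% of genes), with 2 members at an unadjusted p under 0.05 (8.58% of genes). Among the 3 co-cultures no gene of the whole table was called. There, 1 member with senECs against control ECs (6.61% of genes), 0 with EGCG-treated senECs against senECs (2.22%) and 0 with EGCG-treated senECs against control ECs (4.55%) had an unadjusted p under 0.05. The mean of the 3 co-cultures against mono-culture gave 0 of 10 (0.723% of genes), with 3 members at an unadjusted p under 0.05 (10.7% of genes). The median log2 fold change of the 10 members lay between 0.01 and 0.10 over these 7 comparisons, beside a median of all genes between -0.02 and 0.01. The comparisons share libraries and are not independent of each other.

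DESeq2, the other count test, called FOSL1 with senECs against mono-culture (1 of 10, beside 1.34% of genes) and FOSL1 and JUNB in the mean of the co-cultures (2 of 10, beside 1.69%). It called no member in the other 5 comparisons, of control ECs (0.464% of genes) or EGCG-treated senECs (0.889%) with mono-culture and among the co-cultures (0%). limma-voom called no member in any of the 7, beside at most 0.599% of genes. These fits leave differences between replicate numbers in the spread. With a replicate block, edgeR and limma-voom each called 3 of 10 members with senECs against mono-culture (2.74% and 1.24% of genes). Each also called 3 in the mean of the co-cultures (3.18% and 1.85%), and 0 with EGCG-treated senECs against senECs. The numbers were not taken to pair the libraries, and all block results are given in the closing section. Group-only edgeR with no filter on low counts also called members, and its counts are given there without a share of all genes.

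**Figure D2:**
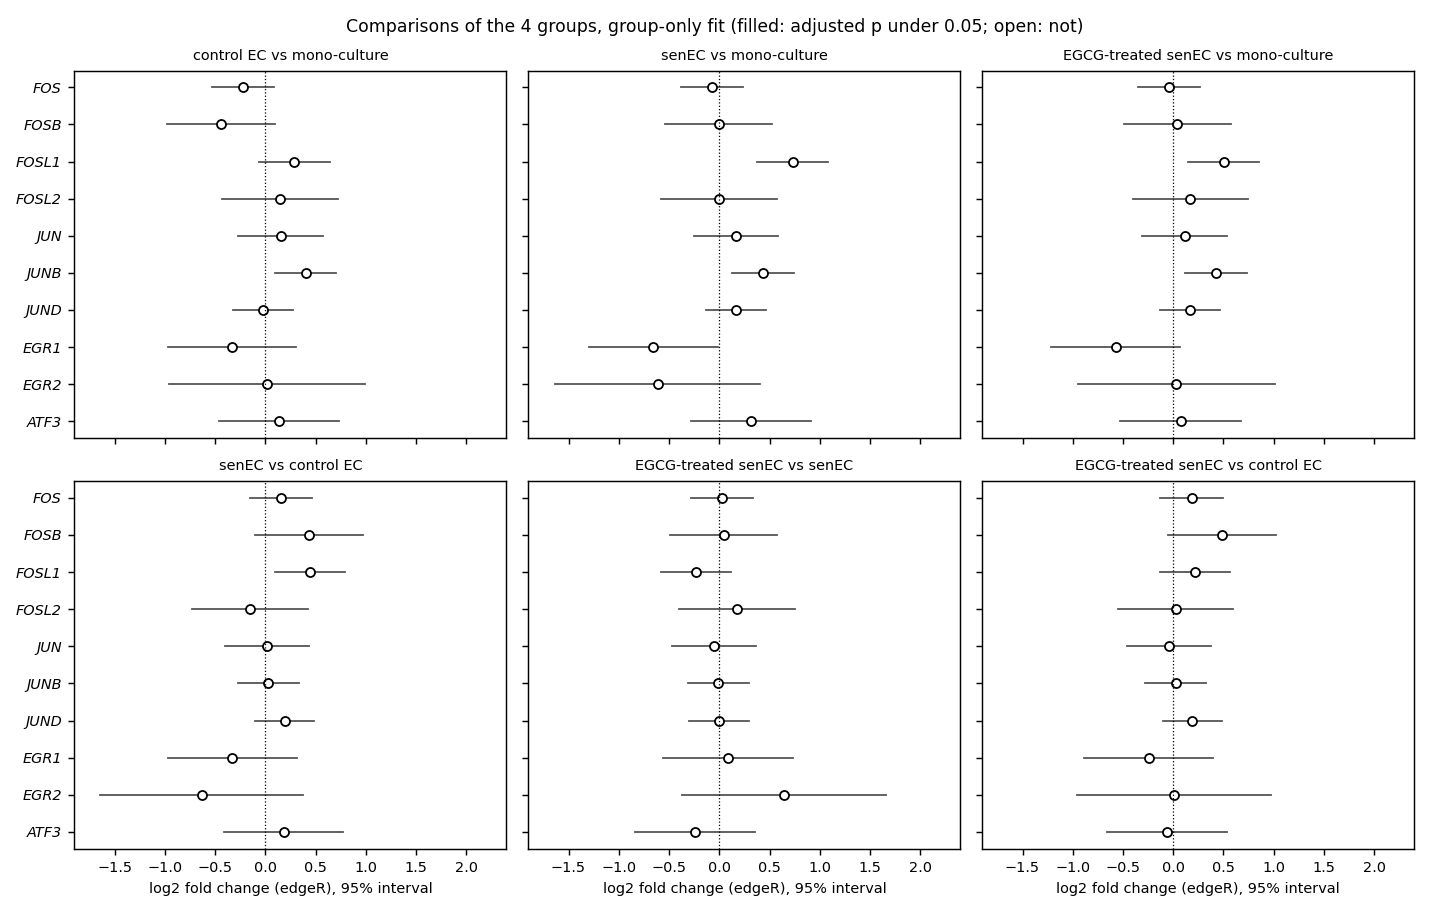
Log2 fold changes of the 10 genes between groups (edgeR, group only, 12 libraries in 1 model), with 95% intervals as lines and open points for an adjusted p of 0.05 or more. Every point is open, and the intervals of FOSL1 and JUNB lie above 0 and that of EGR1 below 0 with senECs against mono-culture.

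Of the FOS family, FOS itself, the short-lived AP-1 subunit that cannot form dimers with itself, was at 36.0, 44.7 and 51.5 CPM in mono-culture and at 35.7, 36.0 and 41.4 CPM with control ECs. It was at 37.7, 36.3 and 52.0 CPM with senECs and at 39.5, 40.2 and 48.7 CPM with EGCG-treated senECs. The 4 groups overlapped, and no comparison of groups gave a log2 fold change beyond -0.23 (control ECs against mono-culture, SE 0.15, edgeR adjusted p = 0.881). FOS also varied least over the 12 libraries, by 1.45-fold from the lowest to the highest. Its log2 range of 0.53 was close to the median of 0.56 over the 10832 genes with a mean of at least 5 CPM.

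FOSL1, which encodes FRA-1, a FOS family member without a transactivation domain, gave the clearest order of groups. It was at 13.1, 13.4 and 19.8 CPM in mono-culture (15.4 ± 3.78, SD, n = 3) and at 15.3, 18.3 and 23.1 CPM with control ECs (18.9 ± 3.91). It was at 23.2, 25.9 and 27.7 CPM with senECs (25.6 ± 2.27) and at 20.2, 23.2 and 22.2 CPM with EGCG-treated senECs (21.9 ± 1.51). All senEC libraries lay above all those of the other 3 groups, though the lowest, at 23.2 CPM, was level with the highest with control ECs (23.1 CPM) and with EGCG-treated senECs (23.2 CPM). FOSL1 was 1.66-fold higher with senECs than in mono-culture (log2 fold change 0.73, SE 0.17), which missed the threshold (edgeR adjusted p = 0.0712). Without mono-culture replicate 3 this value was 0.95 (edgeR adjusted p = 0.0357) and without senEC replicate 1 it was 0.80 (edgeR adjusted p = 0.0458). Over all alternatives the edgeR, DESeq2 or limma-voom adjusted p of FOSL1 in this comparison ran from 3.6e-07 to 0.349.

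With EGCG-treated senECs FOSL1 was 1.42-fold above mono-culture (log2 0.50, SE 0.17, edgeR adjusted p = 0.360). With senECs it was 1.36-fold above control ECs (log2 0.44, SE 0.17, edgeR adjusted p = 0.728). With EGCG-treated senECs it was 0.23 lower than with senECs on the log2 scale (-0.23, SE 0.17, 95% interval -0.58 to 0.12, edgeR adjusted p = 1.00). FOSL1 was therefore not shown to differ between EGCG-treated and untreated senECs, and the interval leaves room for changes in both directions. Among libraries of the same number, FOSL1 was higher than in mono-culture in 3 of 3 with control ECs, 2 of 2 with senECs and 2 of 2 with EGCG-treated senECs. It was lower with EGCG-treated senECs than with senECs in 3 of 3, by 0.16 to 0.32 in log2(CPM + 0.5). All such differences between libraries of the same number are given on this scale.

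Groups without overlap were counted as a description. FOSL1 was the only member whose libraries did not overlap with senECs against mono-culture (1 of 10, beside 16.7% of all genes) or with EGCG-treated senECs against mono-culture (1 of 10, beside 14.1%). The same held with senECs against control ECs (1 of 10, higher, beside 11%) and with EGCG-treated senECs against senECs (1 of 10, lower, beside 5.48%). With control ECs against mono-culture the only such member was JUNB, which was higher (1 of 10, beside 12.8%), and between EGCG-treated senECs and control ECs it was FOSB, higher (1 of 10, beside 9.49%). No member separated all 9 co-culture libraries from mono-culture (3.41% of genes did). These counts of 1 in 10 members were close to the share of all genes.

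FOSB, a FOS family member with a transactivation domain, was at 6.22, 9.96 and 13.8 CPM in mono-culture and at 6.33, 7.21 and 8.61 CPM with control ECs. It was at 8.67, 13.9 and 7.37 CPM with senECs and at 12.1, 9.47 and 9.37 CPM with EGCG-treated senECs. The mean was lowest with control ECs (7.38 ± 1.15 CPM, SD), although the lowest library was in mono-culture (6.22 CPM) and senEC libraries overlapped. The difference of EGCG-treated senECs from control ECs, 0.48 on the log2 scale (SE 0.26), missed the threshold (edgeR adjusted p = 0.979). FOSL2, which encodes FRA-2, was at 18.1, 22.1 and 39.5 CPM in mono-culture, 23.3, 25.2 and 39.9 CPM with control ECs, 22.1, 23.7 and 33.8 CPM with senECs and 23.6, 22.6 and 43.4 CPM with EGCG-treated senECs. In each group 1 library stood well above the other 2, and the group means differed by at most 0.18 on the log2 scale.

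**Figure D3:**
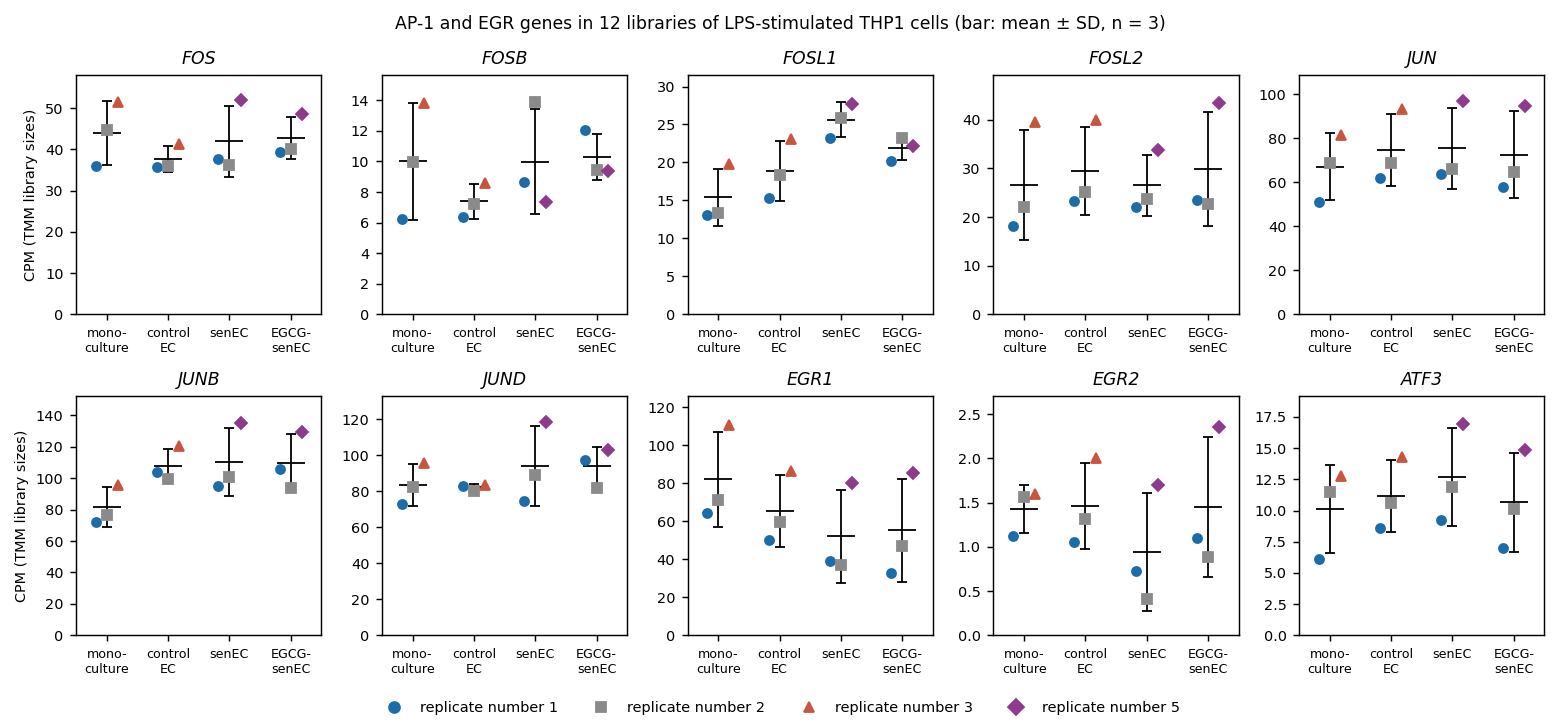
CPM of each gene in the 12 libraries by group (linear axis from 0), with the shape and colour of a point giving its replicate number and the bar the mean ± SD of 3 libraries. Libraries with the number 3 or 5 are the highest of their group in all 4 groups for 8 genes, all but FOSB and FOSL1.

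In the JUN family, JUNB, which dimerizes with FOS proteins and activates weakly compared with JUN, was at 72.2, 76.8 and 95.9 CPM in mono-culture (81.6 ± 12.6, SD, n = 3). It was at 104, 99.8 and 120 CPM with control ECs (108 ± 10.9), at 95.1, 101 and 135 CPM with senECs (110 ± 21.8) and at 106, 93.6 and 130 CPM with EGCG-treated senECs (110 ± 18.3). The 3 co-cultures thus had nearly the same mean, and the highest mono-culture library, at 95.9 CPM, overlapped with the lowest of senECs and EGCG-treated senECs. JUNB was 1.32-fold higher with control ECs than in mono-culture (log2 0.40, SE 0.15, edgeR adjusted p = 0.611). The difference from mono-culture was 0.44 with senECs (SE 0.15, edgeR adjusted p = 0.273) and 0.43 with EGCG-treated senECs (SE 0.15, edgeR adjusted p = 0.371). The mean of the co-cultures was 1.34-fold above mono-culture (log2 0.42, SE 0.12), and this missed the threshold in edgeR (adjusted p = 0.156) and passed it in DESeq2 (adjusted p = 0.0470). Over all alternatives this adjusted p of JUNB, from edgeR, DESeq2 or limma-voom, ran from 0.000369 to 0.596. JUNB was higher in co-culture than in the mono-culture library of the same number in 3 of 3 with control ECs and in 2 of 2 with either kind of senEC. Exons of JUNB (chr19:12791496-12793315, plus strand, GRCh38) overlap those of HOOK2 in the annotation, and the use of strand in counting is not given in the sources used here. JUNB counts may therefore hold HOOK2 reads, or the reverse, and HOOK2 itself was at 13.2 to 17.2 CPM. No other member overlapped an exon of another gene.

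JUN, the main transactivating partner of FOS, was at 51.0, 68.7 and 81.6 CPM in mono-culture and at 61.7, 68.9 and 93.4 CPM with control ECs. It was at 63.6, 65.8 and 96.8 CPM with senECs and at 58.1, 64.9 and 94.9 CPM with EGCG-treated senECs. All 4 groups overlapped, and the log2 fold changes between groups lay between -0.05 and 0.17. JUND, the family member that many resting cells already express, was at 72.7, 82.4 and 95.9 CPM in mono-culture, 83.1, 80.4 and 83.7 CPM with control ECs, 74.8, 88.9 and 119 CPM with senECs and 97.4, 81.7 and 103 CPM with EGCG-treated senECs. The 3 libraries with control ECs lay within the range of mono-culture, and no JUND comparison of groups went beyond 0.19 (senECs against control ECs, SE 0.14, edgeR adjusted p = 0.782).

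EGR1, a zinc finger factor of GC-rich elements that serum response factor (SRF) and its partners induce, varied most among the members with at least 5 CPM. It was at 64.2, 71.4 and 110.5 CPM in mono-culture (82.0 ± 24.9, SD, n = 3), at 50.2, 59.6 and 86.5 CPM with control ECs (65.4 ± 18.8), at 39.1, 37.0 and 80.3 CPM with senECs (52.1 ± 24.4) and at 32.8, 47.2 and 85.4 CPM with EGCG-treated senECs (55.2 ± 27.2). Each group held 1 high and 2 lower libraries, and the groups overlapped through the high ones. EGR1 was at 0.634 of its mono-culture level with senECs (log2 -0.66, SE 0.31), short of the threshold in the group-only fit (edgeR adjusted p = 0.446). Over all alternatives the edgeR, DESeq2 or limma-voom adjusted p of EGR1 in this comparison ran from 8.9e-11 to 0.763, so that the call depends on the fit. It was at 0.673 of that level with EGCG-treated senECs (log2 -0.57, SE 0.31, edgeR adjusted p = 0.624) and at 0.797 with control ECs (log2 -0.33, SE 0.30, edgeR adjusted p = 0.950). EGCG-treated and untreated senECs differed by 0.09 (95% interval -0.56 to 0.73, edgeR adjusted p = 1.00), an interval too wide to say that they act alike. Among libraries of the same number EGR1 was lower than in mono-culture in 3 of 3 with control ECs (by 0.26 to 0.35 on the log2 scale). It was also lower in 2 of 2 with senECs (log2 -0.94 to -0.71) and in 2 of 2 with EGCG-treated senECs (log2 -0.96 to -0.59). The libraries numbered 5 have no mono-culture library of that number. Over all 12 libraries EGR1 had a log2 range of 1.74, larger than that of 98.7% of the 10832 genes.

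EGR2, another EGR family factor, known for its part in myelination and in lymphocytes, was at 1.12, 1.56 and 1.60 CPM in mono-culture, 1.06, 1.32 and 2.00 CPM with control ECs, 0.723, 0.405 and 1.69 CPM with senECs and 1.10, 0.890 and 2.36 CPM with EGCG-treated senECs. Its counts were few and its intervals wide, as with senECs against control ECs (log2 -0.63, 95% interval -1.64 to 0.38, edgeR adjusted p = 0.791). Among libraries of the same number EGR2 was higher with EGCG-treated senECs than with senECs in 3 of 3. The differences were 0.38 to 0.62 in log2(CPM + 0.5), where the added 0.5 shrinks differences at such low levels. The group-only edgeR fit gave 0.64 for this comparison (95% interval -0.37 to 1.66) and did not call it. ATF3, a stress-induced factor of the ATF/CREB family that also pairs with JUN proteins and restrains LPS-induced cytokine genes, was at 6.09, 11.5 and 12.8 CPM in mono-culture and at 8.59, 10.6 and 14.3 CPM with control ECs. It was at 9.24, 11.9 and 16.9 CPM with senECs and at 7.01, 10.1 and 14.8 CPM with EGCG-treated senECs. The groups overlapped, and the ATF3 difference between senECs and mono-culture was 0.32 (SE 0.29, edgeR adjusted p = 0.744). Among libraries of the same number ATF3 was lower with EGCG-treated senECs than with senECs in 3 of 3, with log2 differences from -0.38 to -0.18. The group-only edgeR fit gave -0.24 for this comparison (95% interval -0.84 to 0.35) and did not call it. The share of all genes with 1 direction in 3 of 3 was not counted, so neither EGR2 nor ATF3 is shown to differ.

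The promoters of the EGR genes are shown because, of the 9 members with a searched window, only they held the CArG box there. This 10-base SRF element is rare among such windows. Both stretches are the 250 bases before the RefSeq start site (GRCh38.p14), written in the direction of transcription with the CArG boxes in capitals. That of EGR1 is chr5:138465229-138465478 on the plus strand and that of EGR2, for the RefSeq start with a match among 3, is chr10:62816367-62816616 on the minus strand.
EGR1: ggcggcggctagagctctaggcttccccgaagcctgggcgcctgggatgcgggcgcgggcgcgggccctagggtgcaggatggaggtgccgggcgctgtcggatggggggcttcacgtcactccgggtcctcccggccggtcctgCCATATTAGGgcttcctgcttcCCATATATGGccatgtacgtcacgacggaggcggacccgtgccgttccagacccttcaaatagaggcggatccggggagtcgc
EGR2: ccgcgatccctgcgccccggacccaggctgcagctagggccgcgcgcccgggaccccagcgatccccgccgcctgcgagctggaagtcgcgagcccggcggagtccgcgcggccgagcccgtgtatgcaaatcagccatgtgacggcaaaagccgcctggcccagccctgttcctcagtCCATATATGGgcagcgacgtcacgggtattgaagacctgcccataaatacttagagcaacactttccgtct
EGR1 held the letters CCATATTAGG at -105 to -96 and CCATATATGG at -83 to -74 from its start site, and EGR2 held CCATATATGG at -71 to -62. A CArG box stood in 1.29% of the 35116 RefSeq windows of 300 bases (250 before and 50 after the start), searched on both strands. Windows were found for 9 of the 10 members, all but FOSL1. Among them, JUND held TGACGTCA, the cAMP response element, at -200 to -193 (1.85% of windows hold it). JUN at -67 to -60 and ATF3 at -123 to -116, in the first of its 2 windows, held TGACATCA, a variant bound by JUN and ATF2 (2.61%). FOSL2 held TGACTCA at 4 to 10 past its start (4.95%), and no member held GCGTGGGCG, an EGR element (0.795%). None of these matches overlapped another. They describe letters in a window and not binding. Elements outside the windows were not searched, so no member is shown to lack one. For FOS, FOSB, FOSL2, JUN and ATF3 the 250 bases before a start site overlap annotated exons of the gene itself, so the place of that window depends on the start site used. The 50 bases after the start were not compared with exons. EGR1 itself spans chr5:138465490-138469315, plus strand, and EGR2 chr10:62811996-62919900, minus strand, in GENCODE release 29.

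Libraries of different replicate number were compared in another fit, with group and number together (edgeR, Benjamini-Hochberg adjustment over 25873 genes), whose counts are not comparable with those of the group-only fit. There 1 of the 10 members was called between number 2 and number 1, where 4.88% of all genes were called. Number 3 against number 1, a contrast held by the mono-culture and control EC libraries, gave 6 of 10 members, all higher in number 3, beside 3.8% of genes. Number 5 against number 1, held by the senEC and EGCG-treated senEC libraries, gave 8 of 10 members, all higher in number 5, beside 8.16% of genes. The median log2 fold change of the members was 0.14, 0.59 and 0.57 in these contrasts, beside 0.01, -0.01 and -0.05 over all genes. DESeq2 called 1, 5 and 7 members (3.88%, 3.02% and 6.03% of genes), and limma-voom 0, 5 and 7 (2.95%, 2.58% and 5.33%).

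EGR1 was 1.73-fold higher in number 3 (log2 0.79, SE 0.11, edgeR adjusted p = 3.7e-10) and 2.29-fold higher in number 5 (log2 1.19, SE 0.11, edgeR adjusted p = 9.9e-23). FOSL2 rose in both contrasts, by 0.90 (SE 0.13) and 0.79 (SE 0.13), as did JUN, by 0.59 (SE 0.11) and 0.70 (SE 0.11), and ATF3, by 0.84 (SE 0.18) and 1.01 (SE 0.17). ATF3 was also the member called between numbers 2 and 1 (log2 0.51, SE 0.14, edgeR adjusted p = 0.00770), and that call was lost without mono-culture replicate 1 or 2 and in limma-voom. FOSB (log2 0.73, SE 0.19) and FOSL1 (log2 0.60, SE 0.15) rose in number 3, while in number 5 they had values of -0.25 and 0.19 that did not pass. In number 5, FOS (0.43), JUNB (0.41), JUND (0.38) and EGR2 (1.39, SE 0.45) also rose. The calls of FOSB in number 3 and of EGR2 in number 5 were not made by DESeq2 (adjusted p = 0.0889 and 0.0835) or by limma-voom. In this edgeR fit the spread came almost wholly from all genes, with 1195 prior against 5 residual degrees of freedom. The count of 8 fell to 4 without senEC replicate 5 and to 5 without senEC replicate 1.

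**Figure D4:**
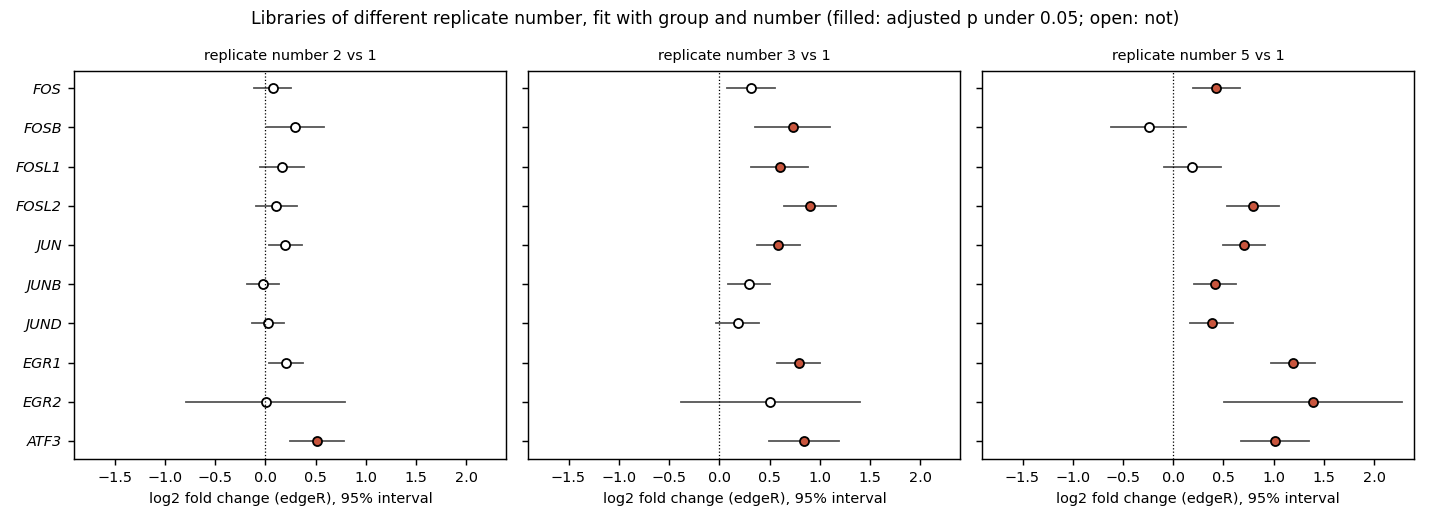
Log2 fold changes of the 10 genes between libraries of different replicate number (edgeR, group and number in the model), with 95% intervals and filled points for an adjusted p under 0.05. The filled points number 1, 6 and 8, and all of them lie above 0.

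Counted library by library, the library numbered 3 or 5 was the highest of its group in all 4 groups for 8 of 10 members, beside 4.35% of all genes. Library 1 was the lowest of its group in all 4 groups for 3 of 10, FOSL1, JUN and ATF3, beside 5.41% of all genes. Since number 3 occurs only in mono-culture and with control ECs and number 5 only in the other 2 groups, a difference between these group pairs and a difference between numbers 3 and 5 cannot be told apart in those libraries. TMM factors were 0.912 to 1.01 in the libraries numbered 3 or 5 and 0.957 to 1.04 in the others, and total counts overlapped. Of the 12 monocyte markers, 5 were called in the contrast of number 2 with number 1 (4 higher, 1 lower). In number 3 it was 6 (4 higher, 2 lower) and in number 5 it was 7 (5 higher, 2 lower). Of these, CD14, the LPS co-receptor, rose by 1.75 (SE 0.14) in number 5 and LYZ by 0.92 (SE 0.08) in number 2, while LILRB4 fell by 0.55 (SE 0.12) in number 3. CSF1R rose by 0.63 (SE 0.11) in number 5. The part of these markers in the AP-1 and EGR values was not tested.

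The other genes of the pathway, taken from lists written by hand, were read from the same fits. Of 34 other immediate early genes, 9 were called in number 2 (8 higher), 16 in number 3 (15 higher) and 18 in number 5 (18 higher). They included CTGF, a secreted matricellular factor (log2 1.51, SE 0.10, in number 5), BTG2, an antiproliferative gene (1.33, SE 0.10), the orphan nuclear receptor NR4A3 (1.89, SE 0.18) and the ERK phosphatase DUSP6 (1.13, SE 0.11). Of 19 textbook AP-1 or EGR1 target genes tested, 10, 14 and 14 were called, all but 1 in number 2 higher. In number 5 these were led by IL1B (2.37, SE 0.10), CXCL8 (1.74, SE 0.10), CCL2 (2.23, SE 0.16) and the adhesion molecule ICAM1 (1.30, SE 0.10). Of 18 other AP-1 and small bZIP partners, 6 (5 higher, 1 lower), 4 (4 higher) and 6 (6 higher) were called. Among them were the AP-1 repressor JDP2 (0.87, SE 0.12, in number 5), MAFF (1.09, SE 0.15, in number 5) and CREM (0.64, SE 0.13, in number 2). The median log2 fold change of the 18 genes was 0.07, 0.18 and 0.14 in number 2, 3 and 5. Of 5 other EGR genes and NAB corepressors, 1, 3 and 3 were called, all higher, with EGR3 (1.50, SE 0.19, in number 5), NAB2 (0.83, SE 0.12, in number 3) and NAB1 (0.48, SE 0.11, in number 5).

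Few genes of the upstream lists were called in the same contrasts, beside 4.88%, 3.8% and 8.16% of all genes in number 2, 3 and 5. With lists of 6 to 19 genes, such counts cannot be told apart from these shares. None of the 6 genes of SRF and the ternary complex factors was called by edgeR or DESeq2 in any contrast of numbers or groups (at most 2 in a contrast had an unadjusted p under 0.05), although SRF, ELK4 and MRTFA were at means of 181, 111 and 102 CPM. Of 19 MAP kinase genes only MAP3K8, which links TLR4 to ERK, was called, in each contrast of numbers (0.99, SE 0.11, in number 5). Of 8 genes of AU-rich element decay, the pathway that shortens the life of many immediate early mRNAs, 1 was called lower in each contrast. ZFP36L2 fell by 0.47 (SE 0.10) in number 5 and ZFP36 by 0.25 (SE 0.08) in number 2.

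Between groups, the lists were read from the group-only fits, so their counts are not comparable with those of the numbers. In these fits 0 target genes were called in any of the 7 comparisons by edgeR or DESeq2, with at most 2 at an unadjusted p under 0.05. Of the EGR and NAB list it was 0 by either group-only fit and 0 at an unadjusted p under 0.05. Of the MAP kinase and decay lists it was 0 by group-only edgeR, at most 1 by DESeq2 and at most 4 and 3 at an unadjusted p under 0.05. BATF, an AP-1 factor of immune cells, was higher in the mean of the co-cultures than in mono-culture (log2 0.60, SE 0.14, edgeR adjusted p = 0.0483). PIM1, a serine/threonine kinase, was higher with EGCG-treated senECs (0.73, SE 0.15, edgeR adjusted p = 0.0406) and in the mean of the co-cultures (0.64, SE 0.12, edgeR adjusted p = 0.0164). Of the monocyte markers, CD14 was higher with senECs than in mono-culture (2.09, SE 0.42, edgeR adjusted p = 0.0363) and in the mean of the co-cultures (1.59, SE 0.37, edgeR adjusted p = 0.0492). FCGR1A, the high-affinity IgG receptor, was higher in the mean of the co-cultures (0.55, SE 0.12, edgeR adjusted p = 0.0348). Of the endothelial markers none was called between groups by group-only edgeR or DESeq2 (at most 3 at an unadjusted p under 0.05), and FLT1, a VEGF receptor that monocytes also express, was called in number 2 (0.96, SE 0.13).

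The genes whose pattern over the 12 libraries was most like a member's were found by the mean absolute difference of log2(CPM + 0.5) after each gene was centred on its own mean. JUN was most like TNFAIP3, an NF-κB feedback inhibitor (0.06), RAP2C (0.06) and TLR2 (0.07), with a median distance of 0.27 over 10823 genes. ATF3 was most like MAP3K8 (0.09), PNRC1 (0.09) and SDCBP (0.09), beside a median of 0.35, and JUN was its nearest member at 0.12. EGR1 was most like NCOA7 (0.16), SPOCK1 (0.17) and PTPRE (0.20), beside a median of 0.47, and its nearest member was FOSL2 at 0.29. FOS was most like CST3 (0.06), CPQ (0.06) and NAB1 (0.06), beside a median of 0.20, and JUND was its nearest member at 0.12. For FOS, 380 genes lay nearer than that member, for EGR1 69, for JUN 82 and for ATF3 16. All 12 points share libraries and depth, and the likeness is a description of these libraries.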

How the data were processed

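The authors deposited 1 table of raw counts per gene symbol, made by a sequencing provider from cleaned reads aligned with HISAT2 to hg38, without normalization. The counting program and annotation are not given in the sources used here. Of its 16 sample columns, 12 match a described sample and 4 match none and were not used. Groups and replicate numbers came from the sample labels. The members and the other gene lists were chosen with earlier results of these data known, so they give no independent support.

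Counts were tested with edgeR 4.0.16 in R 4.3.3 (TMM, quasi-likelihood, all 12 libraries in 1 model, group only; group and number for the contrasts of numbers) over 25873 genes (at least 10 counts summed over the libraries), at a Benjamini-Hochberg adjusted p of 0.05 with no minimum fold. A standard error is the fold change over the square root of F. CPM used TMM library sizes, and FPKM the exon lengths of GENCODE release 29. The alternatives were DESeq2 1.42.0, its size factors, other count filters, only the groups compared, a replicate block and each library left out. limma-voom (limma 3.58.1), with and without the block, was added after seeing the data. All members are named. From each other list, up to 4 called genes by smallest p are named (3 by level where none was called), and for FOS, EGR1, JUN and ATF3 the 3 genes with the most similar pattern. A gene that this rule would also name is not reported here. The fits were tested on simulated counts. Where groups were compared, these held no differences between replicate numbers, so the group-only fit was not tested under such differences. Promoters came from RefSeq (GRCh38.p14). Figures were drawn with matplotlib 3.10.9 in Python 3.11.15, from tables made with pandas 2.3.3 and numpy 2.4.6.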

Additional observations from a re-analysis of the deposited data

How the results depend on the processing

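Counts of members called are given in the order of control ECs, senECs and EGCG-treated senECs against mono-culture, senECs against control ECs, EGCG-treated senECs against senECs and against control ECs, and the mean of the co-cultures, and were 0 in each as reported. DESeq2 gave 0, 1, 0, 0, 0, 0 and 2, and edgeR with no filter on low counts gave 0, 3, 2, 0, 0, 0 and 3. The share of all genes called with no filter is not given here, so these counts are not read as a result about the members. DESeq2 size factors, at least 10 counts in every library, limma-voom and, where it applied, only the groups compared gave 0 throughout; the last does not apply to the mean of the co-cultures, which uses all groups. Leaving out 1 library gave 0 to 1 with senECs against mono-culture, the 1 being FOSL1 without mono-culture replicate 3 or without senEC replicate 1, and 0 elsewhere. Between numbers 2 and 1 the count of 1 was 0 in limma-voom and 0 to 1 with a library left out (0 without mono-culture replicate 1 or 2), between 3 and 1 the count of 6 was 4 to 6, and between 5 and 1 the count of 8 was 4 to 7 (4 without senEC replicate 5, 5 without senEC replicate 1). Of 1370 values of single genes under an alternative, 1235 kept their direction and side of the threshold or moved within the spread, 24 lost a call, 37 gained one, 74 moved and 0 reversed while called; 130 uncalled values changed sign. None of the 40 group means moved beyond its SD with DESeq2 size factors.

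The replicate block was tried although the numbers were not taken to pair the libraries: the deviations of same-numbered libraries correlated at 0.0351 to 0.472, above 0.1 in 10 of 14 pairs, and 9 of 12 libraries were closest to their own number. With the replicate block edgeR called 1, 3, 3, 3, 0, 2 and 3 members (1.81%, 2.74%, 1.64%, 0.591%, 0.0502%, 0.131% and 3.18% of all genes) and limma-voom 1, 3, 2, 0, 0, 0 and 3 (0.974%, 1.24%, 0.788%, 0.00387%, 0%, 0.00387% and 1.85%). In the mean of the co-cultures both called EGR1 (log2 -0.65), FOSL1 (0.62) and JUNB (0.39), with limma-voom adjusted p = 5.2e-05, 0.00260 and 0.00471. In that edgeR fit the spread came almost wholly from all genes, with 1195 prior against 5 residual degrees of freedom (limma-voom 21.9), and the calls of FOSB, FOSL1 and EGR1 with senECs against control ECs and of FOSB and EGR1 with EGCG-treated senECs against control ECs were made by edgeR alone. Of the other lists, edgeR with the replicate block called, in the same order of comparisons, 4, 5, 6, 1, 0, 0 and 7 target genes, 0, 1, 1, 1, 0, 0 and 1 genes of the EGR and NAB list, 1, 2, 2, 1, 0, 0 and 3 bZIP partners, 3, 2, 1, 0, 0, 0 and 4 other immediate early genes, 3, 3, 2, 1, 0, 0 and 4 monocyte markers and 1, 2, 0, 0, 0, 0 and 1 endothelial markers. It called 1 MAP kinase gene and 1 decay gene in the mean of the co-cultures and no SRF gene. The cause of these changes was not tested. EGR2, with 7 to 44 counts per library, is the member most limited by depth.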
